A study of Drosophila melanogaster with 3 samples.

Results

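Dense runs of binding sites of the CG9727-eGFP fusion protein were examined in Drosophila melanogaster embryos. A run is a row of 4 or more peak summits, from at least 3 different peak intervals, in which each summit lies no more than 3000 bp from the next. The summits were those of the authors' joint list of reproducible peaks on the dm6 build, selected by irreproducible discovery rate (IDR). By this rule 1298 of the 7896 summits (16.4%) fell into 268 runs, and the other 6598 summits served for comparison. The positions of the summits chose the members, so the number, spacing and length of the runs are a description and were not tested.

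Chromatin immunoprecipitation with sequencing was carried out with an anti-GFP antibody on sonicated chromatin. The embryos were 0 to 24 h old, of both sexes, and came from a single transgenic line that stably carries CG9727 with GFP at its C-terminus. The 3 samples form 1 group and are numbered as biological replicates 1, 2 and 3. The sources used here do not say which promoter drives the fusion, whether the untagged gene is still present, or how far the replicates are separate collections of embryos. Part of the spread between them may therefore be technical. Whole embryos mix all tissues, and a site bound strongly in few cells cannot be told apart from one bound weakly in many. Peak lists hold no expression values, so the tissue could not be checked by marker genes, and the read depth behind each peak is unknown.

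In the fly genome, genes that control development often carry many separate enhancers, short sequences to which transcription factors bind, spread over their introns and the sequence around them. Promoters of genes used by all cells are more often bound close to the transcription start site (TSS), for instance through the DNA replication-related element (DRE). A row of close summits can therefore cover several promoters of neighbouring genes or several sites within a single gene, and the position of each summit relative to annotated TSSs tells these apart.

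The sequences under the strongest summits of 9 runs show what the precipitated sites look like. Each window reaches 50 bp to either side of the summit, is given on the plus strand from the RefSeq copy of dm6, and is named after the genes the run overlaps. The first 4 come from runs that hold some of the highest signals in the IDR list and the others from the runs with the most summits, with a second window for the longest run. The ush and cbt, Trl and ph-p windows were picked after their values had been seen. Capitals mark matches on either strand to the words listed further on other than the short E-box, here TAATTA of homeodomain factors, the GATA word AGATAA and the GAGA word GAGAG.
ush and cbt, chr2L:481005-481105: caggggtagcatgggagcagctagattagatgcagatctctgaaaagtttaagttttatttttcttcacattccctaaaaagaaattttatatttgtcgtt
CG4004, chrX:12751074-12751174: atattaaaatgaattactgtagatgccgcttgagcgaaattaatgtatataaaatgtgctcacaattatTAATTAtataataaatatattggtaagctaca
Trl, chr3L:14759472-14759572: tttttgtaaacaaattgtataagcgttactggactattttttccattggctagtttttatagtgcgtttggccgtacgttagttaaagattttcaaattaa
ph-p, chrX:2137286-2137386: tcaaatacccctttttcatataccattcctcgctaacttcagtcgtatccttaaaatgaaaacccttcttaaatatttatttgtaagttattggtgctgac
CHES-1-like, intron, chrX:7705564-7705664: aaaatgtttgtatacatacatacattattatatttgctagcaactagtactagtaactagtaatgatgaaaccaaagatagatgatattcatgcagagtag
CHES-1-like, promoter, chrX:7709144-7709244: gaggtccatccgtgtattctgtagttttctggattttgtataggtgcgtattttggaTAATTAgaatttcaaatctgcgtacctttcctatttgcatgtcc
bowl, chr2L:3771471-3771571: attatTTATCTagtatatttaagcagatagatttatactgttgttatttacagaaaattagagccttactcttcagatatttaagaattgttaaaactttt
Raf, chrX:2297656-2297756: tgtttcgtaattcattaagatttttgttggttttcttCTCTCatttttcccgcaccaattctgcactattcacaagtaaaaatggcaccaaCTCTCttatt
tna, chr3L:10855897-10855997: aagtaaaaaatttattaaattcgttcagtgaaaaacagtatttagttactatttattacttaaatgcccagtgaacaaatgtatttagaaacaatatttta
Pgk and Bacc, chr2L:2751955-2752055: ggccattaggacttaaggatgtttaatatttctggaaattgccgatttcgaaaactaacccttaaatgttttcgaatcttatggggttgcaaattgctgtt

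The windows are rich in A and T. Of the 10 windows printed, 6 held none of the marked words. GC content was lowest in the tna window (20.8%) and highest in the CHES-1-like promoter window (37.6%). Over all runs it averaged 34.5% in windows on summits of runs and 34.1% in windows on other summits, against 42.5% and 43.9% in windows 500 bp to either side.

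The runs were short and most were small. Of the 268 runs, 152 held the minimum of 4 summits, 55 held 5, 39 held 6 and 22 held 7 to 15. From first to last summit they spanned a median of 4630.5 bp, with quartiles of 3386.5 and 5974.25 bp and a range of 715 to 18374 bp, and covered 1298 kb in all. The 8 runs over 10000 bp lay at CHES-1-like, tna, Raf, CG44362, Mi-2 and Su(Tpl), Diap1 and Mbs, shn, and NK7.1.

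**Figure D1:**
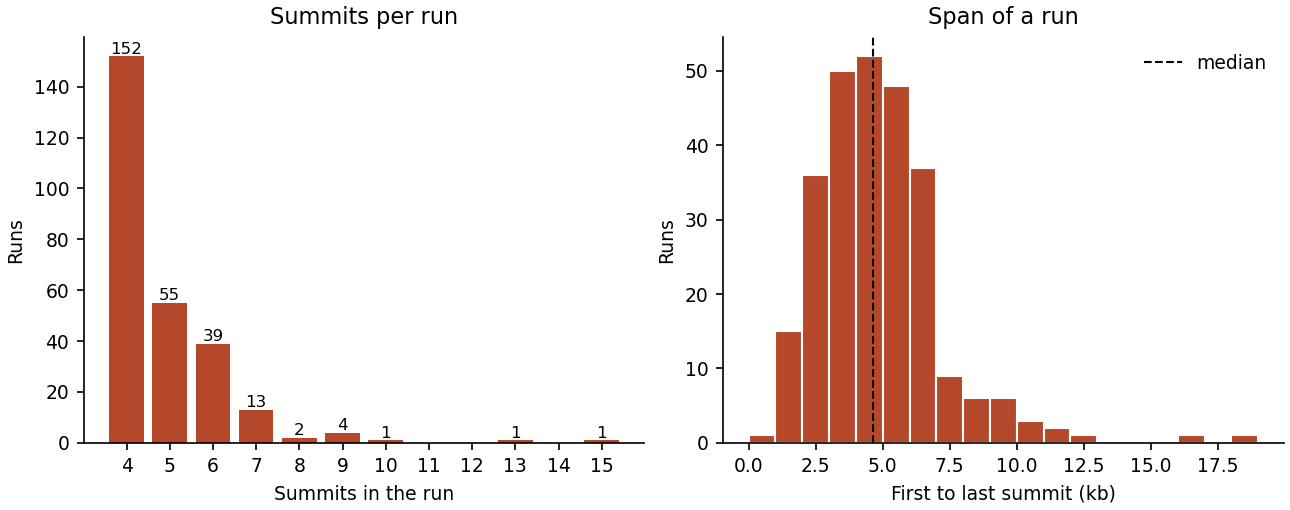
Left, number of runs (vertical axis) by the number of summits they hold (horizontal axis). Right, number of runs by span from first to last summit in kb, with the median of 4630.5 bp dashed. Runs of 4 summits are the commonest, at 152 of 268, and the CHES-1-like run, with 15 summits over 18374 bp, stands at the right end of both plots.

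Summits inside a run lay a median of 1189 bp apart, against 5424.5 bp between neighbours in the whole list, a difference that the rule itself makes. The largest gap joined inside a run was 2999 bp, and the smallest gap beside a run that was not joined was 3018 bp. Just outside the rule were 375 rows of 3 summits, and 2 rows of 4 or more summits that came from fewer than 3 intervals. Of the 1030 gaps inside runs, 285 (27.7%) were shorter than 504 bp, the median width of an interval, and 192 of them were 199 to 210 bp long. Whether such close pairs are separate sites was not tested. With 1 summit kept per 504 bp, an alternative chosen after the data had been seen, 145 runs with 667 summits remained under the same rule.

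Runs were found on all the large arms. There were 74 on 3L, 54 on 3R, 48 on 2L, 48 on 2R and 44 on X, and none on chromosome 4. They held 20.1% of the summits on 3L, against 13.7% on 3R, 15.4% on 2L, 17.1% on 2R and 16.1% on X. No run overlapped CG9727 itself.

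Introns were the commonest place for summits of runs. Of the 1298 summits in runs, 603 (46.5%) lay in introns more than 500 bp from a TSS, against 2263 of 6598 (34.3%) of the other summits. A TSS lay within 500 bp of 453 summits in runs (34.9%), against 3091 other summits (46.8%), where 44.9% of all IDR summits had a TSS that close. TSSs of non-coding genes were counted here and in all promoter classes below. The nearest TSS was protein-coding for 84.3% of these summits in runs and 93.9% of the others. The share between genes was 15.4% in runs and 16.5% among other summits, and 3.16% in runs and 2.11% of the others lay in exons outside coding sequence. Only 1 summit in runs and 14 other summits lay in coding exons. Since summits of a run are spread over several kb, the rule limits how many of them can lie within 500 bp of the same TSS.

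The same shares were taken in each replicate, with runs rebuilt from its own 7896 strongest summits. The promoter share was 34.5 ± 0.262% in runs and 47.3 ± 2.11% among other summits (SD, n = 3), and the difference ranged from -14.7 to -10.8 percentage points. The intron share was 46.1 ± 0.670% in runs and 34.3 ± 1.61% among other summits, with differences of 9.47 to 13.9 points. Both differences had the same sign in all 3 replicates and were larger than the spread between them. The two-sided exact sign-flip permutation test gave p = 0.25 for each, the smallest p that 3 replicates allow. The share between genes averaged 15.6 ± 0.874% in runs and 16.1 ± 0.433% among other summits, a difference that changed sign between replicates (exact permutation p = 0.5).

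**Figure D2:**
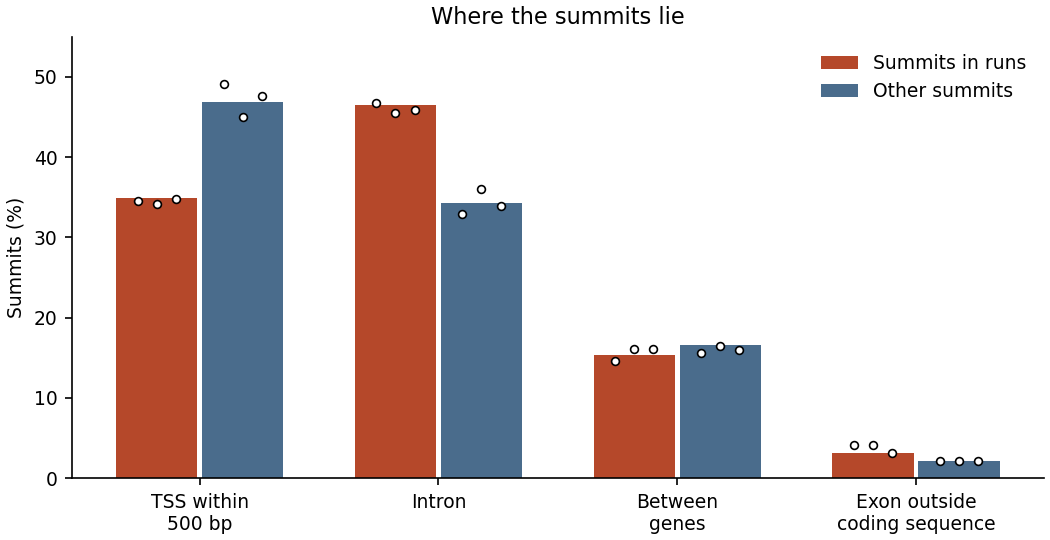
Share of summits (vertical axis, %) by position, for summits in runs and for other summits. Bars show the IDR list and white points the 3 replicates, each with runs rebuilt from its own strongest summits. In every replicate the promoter share of runs lies below that of other summits and the intron share lies above it.

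By the place of most of their summits, 104 runs were intronic, 64 were promoter runs, 35 lay between genes and 65 were mixed. The intronic runs held 532 summits and spanned a median of 4673 bp, the promoter runs held 298 and spanned 4482 bp, and the runs between genes held 167 and spanned 4964 bp. In all, 105 runs lay wholly inside a protein-coding gene, some of them overlapping further genes as well, and 36 overlapped no protein-coding gene. The span of 91 runs held no protein-coding TSS, that of 118 held TSSs of 1 gene, and that of 59 held TSSs of 2 or more genes. Only 17 runs consisted of promoter summits alone, 63 had none, and 188 joined promoter summits with others. In those 188 runs, 40.6% of the summits were at a promoter, and the strongest summit was at a promoter in 86 runs (45.7%).

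**Figure D3:**
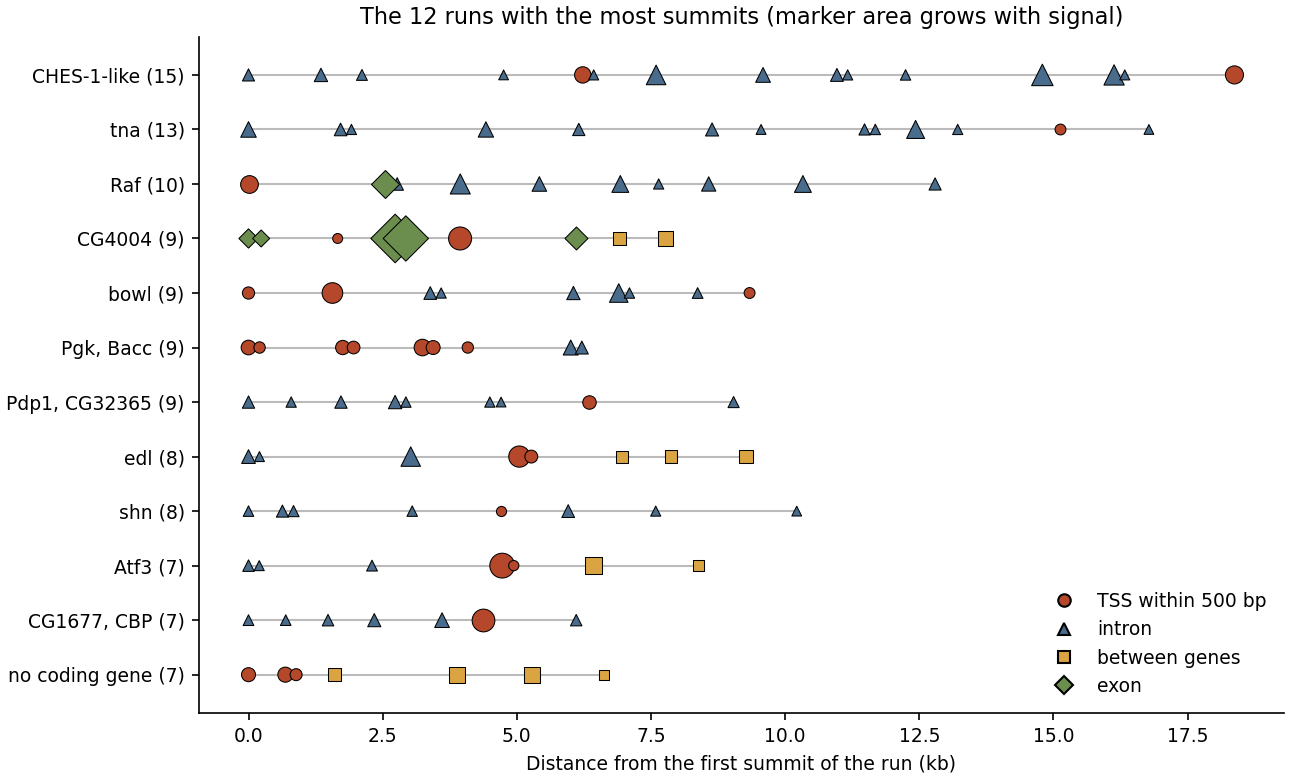
The 12 runs with the most summits, named by the protein-coding genes they overlap with the number of summits in parentheses. The horizontal axis is the distance from the first summit in kb, the shape and colour of a marker give the position of the summit, and its area grows with signal. Intron summits make up most of the CHES-1-like and tna runs, whereas 7 of the 9 summits of the Pgk and Bacc run lie at promoters.

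The longest run lay in CHES-1-like, a gene for a forkhead transcription factor, on X from 7690820 to 7709194. All 15 IDR summits inside the 27048 bp gene, on the minus strand, belonged to it, 13 of them in introns and 2 within 500 bp of a TSS. Signals, which are the authors' values and rank peaks only within a list, ran from 159 to 1499.7. The strongest summit, intronic and 651 bp from a TSS, had signals of 538, 364 and 603 in the lists of replicates 1, 2 and 3. The next, also intronic, had 448, 256 and 587, and the summit 191 bp from the annotated start had 279, 248 and 448. These 3 summits were found in every replicate. In all, 10 of the 15 summits were recovered in all 3 replicates, that is, had a summit within 100 bp among the 7896 strongest of each. A weak summit 204 bp from a stronger one, with a signal of 181, was recovered in none.

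The tna run (3L from 10843515 to 10860295) lay in the gene for a zinc finger protein that interacts genetically with the Brahma chromatin remodelling complex. It held 13 summits, 12 of them in introns, with signals of 161 to 998. Its strongest summit, 1942 bp from a tna TSS, had signals of 325, 283 and 392 in replicates 1, 2 and 3. The summit 231 bp from a tna TSS was weaker, at 238 in the IDR list, and was not matched in replicate 3. Of the 13 summits, 6 were recovered in all 3 replicates.

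The Raf run (X from 2293760 to 2306555) covered the start of the gene for the kinase that acts between Ras and MEK in receptor tyrosine kinase signalling. It held 10 summits with signals of 191 to 1285, of which 8 lay in introns, 1 in an exon outside coding sequence and 1 within 500 bp of the neighbouring CG2865. The strongest summit, 2240 bp from a Raf TSS, had signals of 472, 321 and 494 in replicates 1, 2 and 3. Of the 10 summits, 9 were recovered in all 3 replicates, and the weakest, at 191, was missed only in replicate 1.

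A run of 9 summits overlapped CG4004 and the non-coding genes lncRNA:Vinr and lncRNA:CR44619 (X from 12748391 to 12756167). A pair of summits 199 bp apart in the same interval had signals of 4135 and 3575, ranks 4 and 10 of the whole IDR list. The stronger of the pair was matched in replicates 1 and 3, at 1582 and 1678, and had no match within 100 bp in replicate 2. Its neighbour was matched in all 3, at 1111, 912 and 1135. One summit or the other of the pair was thus strong in each replicate.

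The bowl run (2L from 3769957 to 3779295) lay at a zinc finger gene of the odd-skipped family, with 9 summits and signals of 193 to 1368. Its strongest summit was 179 bp from a bowl TSS and had signals of 475, 287 and 610 in replicates 1, 2 and 3. A second strong summit, in an intron 2081 bp from a TSS, had 427, 239 and 435. Both stood well above the remaining 7 summits, which reached 456 at most.

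The run at Pgk and Bacc (2L from 2748764 to 2754976) differed from these in kind. Pgk encodes phosphoglycerate kinase, an enzyme of glycolysis. Of its 9 summits, 7 lay at promoters, in groups around separate annotated TSSs, and no summit dominated, with signals of 277 to 818. The strongest summit, 440 bp from a Bacc TSS, had signals of 258, 233 and 355 in replicates 1, 2 and 3.

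Other runs among the 12 with the most summits lay at further transcription factor genes. The Pdp1 run (3L from 7861206 to 7870246), at the gene for a PAR-domain bZIP factor of the circadian clock, had 9 summits with signals of 158 to 477. It also overlapped CG32365. Its strongest summit, 186 bp from a Pdp1 TSS, had no match in replicate 1 and signals of 63.4 and 179 in replicates 2 and 3. In no replicate was that summit the strongest of the run. The Atf3 run (X from 1270760 to 1279148), at the gene for a stress-responsive bZIP factor, had 7 summits, and the one 204 bp from an Atf3 TSS, at 2064, held 51.4% of the summed signal of the run. That summit had signals of 601, 548 and 924 in replicates 1, 2 and 3.

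The run at CG1677 and CBP (X from 7332701 to 7338808) was the one run of 7 or more summits in which every summit was recovered in all 3 replicates. It held 6 intron summits with signals of 222 to 603 and a promoter summit 288 bp from a CBP TSS at 1701, which had 627, 433 and 670 in replicates 1, 2 and 3. A run of 7 summits on 3L from 11349329 to 11355953 overlapped no protein-coding gene, and its nearest annotated TSS was that of lncRNA:CR45251. Its signals were 180 to 725, and 5 of its 7 summits were recovered in all 3 replicates.

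At the ends of the range stood 4 further runs. The highest median signal, 1615, belonged to a run of 4 summits at jp, a junctophilin gene, brwl and CG46468 (2L from 9564752 to 9570072). The lowest, 171, belonged to a run of 4 summits between genes near Tollo, which encodes a Toll-family receptor (3L from 15230624 to 15234978), and no replicate had a run there. The shortest run, 715 bp long, lay at grp, the fly Chk1 checkpoint kinase gene (2L from 16684319 to 16685034), and was found in 1 replicate. The largest number of protein-coding genes with a TSS inside a run was 5, on 3L from 9456179 to 9462409, where phol, CG3552, CG3434, CG3437 and CG44838 lie close together, and all 5 summits of that run were at promoters.

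Of 13945 protein-coding genes, 327 (2.34%) were overlapped by the span of a run, and 322 (2.31%) had a summit of a run within 500 bp of a TSS. The overlapped genes had a median length of 10320 bp, against 2166 bp for all protein-coding genes. Gene length moved with the overlap, from 1.13% of genes up to 2000 bp long to 12.1% of genes over 50000 bp, and 1973 genes with an IDR summit but no run had a median length of 8519 bp. The part of gene length in the counts below was not tested. In 12 genes there were 2 or more runs. These were shn, CG1677, drn, Tlk, tara, CG14434, CG43658, ush, aop, crp, brat and CG44838.

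The EGFR, Ras and MAPK pathway had the highest share of overlapped genes among the 21 lists examined, with 7 of 21 genes against 2.34% of all protein-coding genes. The median length of its genes was 9416 bp, and 2.92% of all genes 5000 to 10000 bp long were overlapped. Several of the overlapped genes were longer, with aop, S, Raf and pnt at 22271 to 55937 bp. Of all genes 20000 to 50000 bp long 9.21% were overlapped, and of those over 50000 bp 12.1%. Signals through this receptor tyrosine kinase pathway pattern many embryonic tissues. The overlapped genes were those of 2 ligands, a protein that helps to process a ligand, a kinase, 2 ETS-domain transcription factors and a protein that binds these factors. Of the ligands, spi (2L from 19572952 to 19577545) had a run of 4 summits at promoters of spi and msb1l, with signals of 229 to 1512, all recovered in all 3 replicates. At Krn a run of 6 summits, 4 of them between genes, had signals of 197 to 727, and all 6 were recovered in all 3 replicates. At S (Star), which is needed for the export of the Spi ligand before cleavage, a run of 4 intron summits (2L from 1070568 to 1075951) had signals of 262 to 1111. Its strongest summit had 448, 253 and 406 in replicates 1, 2 and 3, and all 4 were recovered in all 3 replicates. Raf has been described above.

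Among the transcription factors at the end of the pathway, the ETS-domain repressor gene aop (Yan) had 2 runs with 10 summits and signals of 204 to 1157. The activator gene pnt had a run of 5 summits, 4 of them in introns, with signals of 178 to 698, although 15 IDR summits lay in its 55937 bp. The run at edl, whose product binds Yan and Pointed and lacks their DNA-binding domain, held 8 summits (2R from 18668706 to 18677976). The strongest, 217 bp from an edl TSS at 1453, had signals of 569, 328 and 558 in replicates 1, 2 and 3, and an intron summit at 1202 had 429, 318 and 446.

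In the Notch list 3 of 17 genes were overlapped. At nej, the gene for a histone acetyltransferase, 6 summits had signals of 199 to 1369. At neur, which encodes a ubiquitin ligase for Delta, 4 summits had signals of 179 to 628, and 1 of the 3 replicates had a run of its own there. At numb, an inhibitor of Notch in asymmetric divisions, 4 summits had signals of 164 to 1475, but no replicate had a run of its own there. A run of 5 summits in the Enhancer of split complex (3R from 26009114 to 26014444) spanned the gene E(spl)malpha-BFM. Its summits lay mostly between genes and had signals of 220 to 634.

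In the Dpp and activin list, 2 of 19 genes were overlapped, shn and cv-2. The zinc finger factor gene shn, a mediator of Dpp signalling, had 3 runs, the most of any protein-coding gene, with 20 of the 21 IDR summits inside its 58309 bp. Signals were 162 to 408 in the first run (2R from 11178579 to 11188796), 163 to 1516 in the second and 181 to 552 in the third. The strongest summit of the locus, in an intron 3398 bp from a TSS, had 554, 327 and 670 in replicates 1, 2 and 3. All 3 runs were found again in all 3 replicates, and 17 of the 20 summits lay in introns.

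Of the remaining signalling lists, the Wingless list had 2 of 20 genes overlapped, the co-receptor arr and the feedback inhibitor nkd. The wg gene itself was not, but 5 summits in the sequence between wg and Wnt4 formed a run (2L from 7290774 to 7298908), 8251 bp or more from any TSS, with signals of 200 to 632. The JAK-STAT list had 1 of 9, the transcription factor gene Stat92E, and the insulin and TOR list had 2 of 16, Myc and Thor. The ecdysone list had 1 of 16, ftz-f1. None of 13 Hedgehog genes and none of 16 Hippo genes was overlapped, although 5 and 7 of them held an IDR summit. Over all 13945 protein-coding genes, 2.34% were overlapped and 2247 held an IDR summit. At that share a list this short can hold no overlapped gene.

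Among lists of developmental regulators, the homeotic list had 1 of 8 genes overlapped, lab, with 5 summits and signals of 163 to 610 (3R from 6663077 to 6667456). The neural and proneural list had 1 of 25, brat, an NHL-domain repressor of translation, which had 2 runs. None of 24 segmentation genes, 18 mesoderm and muscle genes or 18 cuticle genes was overlapped. Of these, 5 segmentation and 8 mesoderm genes held an IDR summit, and no cuticle gene did. Over all 13945 protein-coding genes, 2.34% were overlapped and 2247 held an IDR summit. A summit of a run lay within 500 bp of a TSS of 1 segmentation gene, bcd, outside the span of the gene. The absence of a run is thus not an absence of summits.

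Some of the strongest summits lay at genes of chromatin regulators. The Polycomb and Trithorax list had 4 of 32 genes overlapped, Trl, ph-p, skd and phol. At Trl, which encodes the GAGA factor, a run of 6 summits (3L from 14756164 to 14762425) had signals of 245 to 3875. Its strongest summit, in an intron 1527 bp from a TSS, ranked 8 of the IDR list and had signals of 1244, 1084 and 1568 in replicates 1, 2 and 3. At ph-p, a subunit of Polycomb repressive complex 1, a run of 4 summits (X from 2134420 to 2137975) had a pair at the promoter with signals of 2972 and 1639, and the stronger had 1049, 869 and 1166 in the replicates. All summits of both runs were recovered in all 3 replicates. The insulator and promoter list had 2 of 22, Trl and lola. The list of BTB zinc finger genes and other long loci had 1 of 13, lola. Each of the 13 held an IDR summit, as did 2247 of all 13945 protein-coding genes, and their median length was 53425 bp, against 2166 bp for all.

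The heat shock and stress list had 3 of 22 genes overlapped. These were puc, a phosphatase of the JNK pathway, Jra, the fly Jun, and Atf3, and no heat shock protein gene was among them. The list of RNA-binding translation regulators had 4 of 20, brat, shep, Rbfox1 and pum, with a median length of 49970.5 bp for its genes. The cell cycle list had 2 of 24, Myc and Cdk4, and the list of cytoplasmic ribosomal proteins had 1 of 32. Over all protein-coding genes the share was 2.34%.

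The highest signal of the IDR list lay in a run of 4 summits within ush that also overlapped cbt (2L from 478943 to 481982). The protein of ush is a cofactor of GATA factors, and cbt encodes a zinc finger factor. The summit, in an intron 1367 bp from a cbt TSS, had a signal of 5523 and 1916, 1367 and 2183 in replicates 1, 2 and 3. The second highest, 5157, lay 205 bp from a TSS of the wing vein gene px, in a run of 6 summits on 2R from 22508207 to 22516112. It had 1972, 1243 and 1964 in the replicates. Both summits stood far above the others of their runs, which reached 1524 and 669.

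Runs were also strung along a locus. At tara, a gene that acts with the Trithorax group, 4 runs with 22 summits followed each other on 3R, of which 2 lay within the gene and 2 before it. The first (16209203 to 16215196) held 7 summits at and between non-coding genes, lncRNA:CR45637 among them, with signals of 201 to 587. The second (16221866 to 16224701) held 6 summits with signals of 195 to 1449 and a median of 1053. Inside tara, a run of 5 intron summits (16232070 to 16237005) had signals of 276 to 1612. The last run, of 4 intron summits (16247786 to 16250238), had a median of 195 and was found in no replicate alone, whereas the other 3 were found in each.

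Signal was somewhat higher in runs. The median was 317 in runs, with quartiles of 217 and 564, and 277 among other summits, with quartiles of 201 and 450, a ratio of 1.14. By position the ratio was 1.07 for promoter summits, 1.19 for intron summits and 1.23 for summits between genes. In the lists of replicates 1, 2 and 3, the ratio over the same summits was 1.15, 1.17 and 1.18. On the log2 scale these averaged 0.23 ± 0.019 (SD, n = 3), above 0 in 3 of 3 replicates, with an exact permutation p of 0.25, the smallest that 3 replicates allow. Part of this agreement is built in, because the runs were fixed from the joint list, which the same replicates entered. The distributions overlapped widely. Signal in the IDR list also moved with spacing. With a neighbour within 504 bp the median was 330 for 559 summits in runs and 312 for 1443 other summits. Without such a neighbour it was 300 for 739 summits in runs and 267 for 5155 others. The part of spacing in the difference between runs and other summits was not tested. The authors' −log10 q could not rank the stronger summits, since 85.1% of summits in runs and 79.0% of other summits shared its highest value, 4.10.

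Of the 789 strongest summits in the IDR list, 186 (23.6%) lay in runs, against 11.2% of the 789 weakest. At least 1 of the 789 strongest was present in 125 runs (46.6%). Within a run, the strongest summit held a median of 38.1% of the summed signal, from 17.0% at CHES-1-like to 71.3%. It lay in an intron in 124 runs, at a promoter in 103 (38.4%) and between genes in 35.

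**Figure D4:**
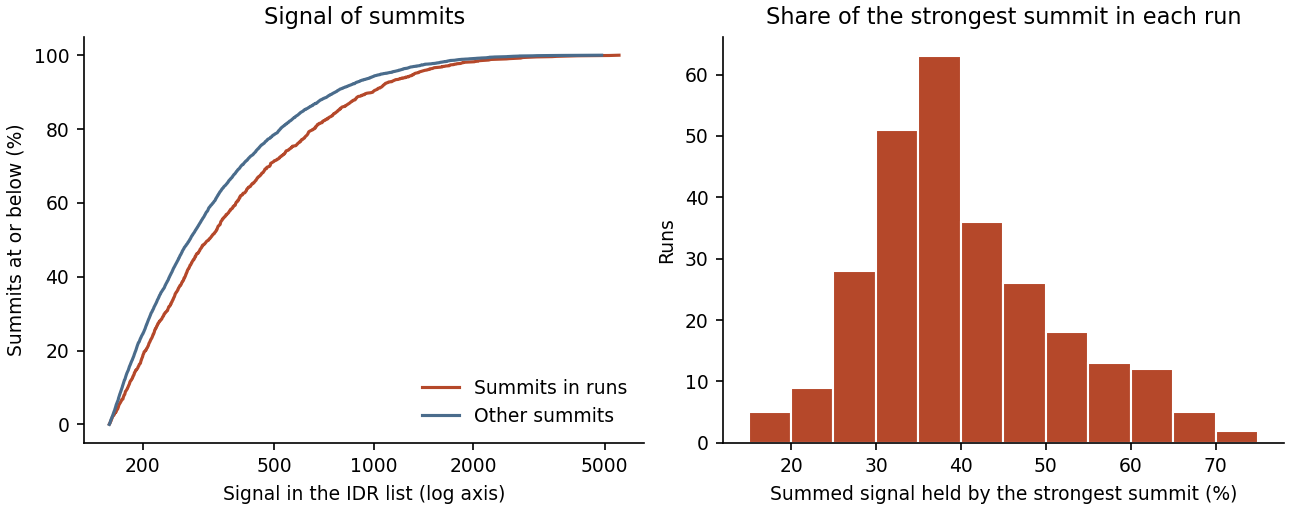
Left, share of summits (vertical axis, %) at or below a given signal in the IDR list (horizontal log axis), for summits in runs and other summits. The curve for runs lies to the right, with a median of 317 against 277. Right, number of runs by the share of their summed signal (%) that the strongest summit holds, with a median of 38.1%.

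Single summits in runs were recovered in the replicates about as often as others. Summits in runs were recovered at 84.4%, 78.3% and 87.3% in replicates 1, 2 and 3, and other summits at 83.2%, 79.7% and 85.0%. The difference averaged 0.692 ± 1.88 percentage points (SD, n = 3) and ranged from -1.39 to 2.26 (two-sided exact permutation p = 0.75). All 3 replicates recovered 831 summits in runs (64.0%) and 4105 other summits (62.2%), where 62.5% of all IDR summits were. Part of this recovery is built in, because the same replicates entered the IDR list.

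Recovery moved with crowding. Summits in runs that had a neighbour within 504 bp were recovered in all 3 replicates in 310 of 559 cases (55.5%), and those without in 521 of 739 (70.5%). Among other summits the shares were 53.1% of 1443 with such a neighbour and 64.8% of 5155 without.

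Most runs were found again in at least 2 replicates, in the sense that their span overlapped a run of the replicate. Under the same rule, replicates 1, 2 and 3 gave 272, 247 and 291 runs of their own (270 ± 22.1, SD, n = 3), with median spans of 4627, 4614 and 4488 bp. Of the 268 runs, 194 (72.4%), 164 (61.2%) and 212 (79.1%) overlapped a run of replicate 1, 2 and 3. In all 3 replicates 126 runs (47.0%) were found, in 2 of them 71, in 1 of them 50, and in none 21 (7.84%), so that 197 (73.5%) were found in at least 2. Conversely, 71.3%, 66.0% and 72.9% of the replicates' own runs overlapped one of the 268. Overlap does not require the same summits. Every summit was recovered in replicates 1, 2 and 3 for 117, 75 and 140 of the 268 runs. Only 29 runs had every summit recovered in all 3 replicates.

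**Figure D5:**
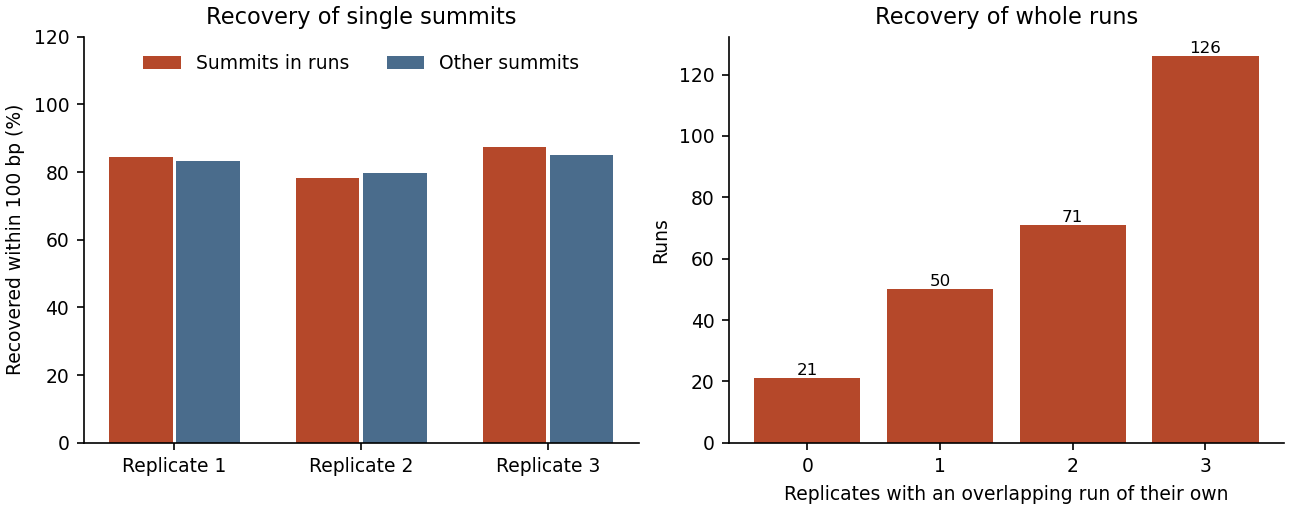
Left, share of summits (vertical axis, %) recovered within 100 bp among the 7896 strongest of each replicate, for summits in runs and other summits. Right, number of the 268 runs by how many replicates have an overlapping run of their own. Single summits reach 78.3% to 87.3% in runs, and 126 runs are found in all 3 replicates.

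Larger runs were found again more often. All 3 replicates found 37 of the 152 runs of 4 summits (24.3%), 70 of the 94 runs of 5 or 6 (74.5%) and 19 of the 22 runs of 7 or more (86.4%). A run of more summits also offers more chances of overlap, so this order is a description only. Of the 21 runs found in no replicate, 20 held 4 summits, and 19 had a gap under 504 bp, as had 73.1% of all runs. The leading summit of a run was mostly the same in the replicates. The summit strongest in the IDR list was also the strongest matched summit in all 3 replicates in 188 runs (70.1%).

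Over all positions, the words of several known factors were about as frequent under summits of runs as under other summits. Words were searched on both strands of these windows around every summit. The homeodomain word TAATTA occurred in 10.2% of windows in runs and 9.78% of other windows, against 5.70% and 5.57% in windows 500 bp to either side. The GAGA word GAGAG occurred in 10.8% and 10.3%, the GATA word AGATAA in 7.63% and 8.31%, the E-box CANNTG in 35.1% and 34.6%, and the Zelda word CAGGTAG in 0.385% and 0.440% of windows in runs and other windows. For the GATA word the replicates had the opposite order, with 8.13 ± 0.683% in runs and 7.61 ± 0.252% among other summits (SD, n = 3). By position the shares differed more. In runs and others, the GATA word occurred in 6.80% and 10.1% of intron windows and 7.95% and 7.12% of promoter windows. For the GAGA word the shares were 9.62% and 10.8% in introns and 13.0% and 10.1% at promoters. For the homeodomain word they were 10.9% and 9.46% in introns and 8.61% and 9.87% at promoters. These differences were not tested. In the flanks of runs and of other summits, the GAGA word occurred in 17.4% and 13.6%, the GATA word in 6.70% and 5.17%, the E-box in 41.5% and 41.0%, and the Zelda word in 0.693% and 0.705%. The homeodomain and GATA words were thus more frequent at summits than in flanks, and the GAGA, E-box and Zelda words less frequent, without a test. GC content also differed, at 34.5% and 34.1% at summits of runs and other summits against 42.5% and 43.9% in their flanks. The part of base composition in the word shares was not tested. A match is a description of the letters and not a site of the factor.

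Over all positions in the IDR list, words of core promoters and insulators were less frequent in runs, which was not tested. The DRE word TATCGATA occurred in 14 windows of runs (1.08%) and in 124 other windows (1.88%). In the replicates the DRE shares were 1.09 ± 0.180% in runs and 1.85 ± 0.122% among other summits (SD, n = 3). Among promoter summits alone it was 2.65% in runs and 3.85% in others. The BEAF core CGATA, which the DRE contains on both strands, occurred in 13.2% and 15.1%, the CTCF core AGNNGGCGC in 0.770% and 1.23%, and Motif 1, GGTCACAC, in 0.770% and 1.11%. In the replicates the BEAF core averaged 13.1 ± 0.569% in runs and 15.7 ± 0.671% among other summits, and the CTCF core 0.801 ± 0.207% and 1.29 ± 0.243%. Motif 1 did not keep its order in the replicates, with 1.12 ± 0.0632% in runs and 1.09 ± 0.0368% among other summits. Among intron summits of the IDR list the DRE word was more frequent in runs, at 0.332% against 0.0884% in others. So were the BEAF core, at 11.1% against 10.7%, and Motif 1, at 0.166% against 0.133%. The CTCF core kept its order there, at 0.829% against 0.972%. Promoter summits made up 34.9% of runs and 46.8% of others, and the part of position in these differences was not tested.

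Some words recurred within runs. The E-box was found in 2 or more windows of 143 runs (53.4%) and the BEAF core of 37 runs (13.8%). The homeodomain word and the GAGA word each recurred in 18 runs and the GATA word in 12. A single window of a run held the E-box in 35.1% of cases and the BEAF core in 13.2%. For the homeodomain, GAGA and GATA words the shares were 10.2%, 10.8% and 7.63%. Every run holds at least 4 windows, so some recurrence comes with these shares alone. Recurrence beyond them was not tested.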

How the data were processed

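Peaks came from 3 ChIP-seq samples of 1 group. The authors' relaxed lists of 30000 peaks, per the file descriptions, set each replicate and the 3 pooled against 1 control, and the IDR list was derived from them. Which aligner, peak caller and IDR threshold were used is not given in the sources used here. The deposited signal value of a peak was used to rank and describe peaks within a list, and the deposited −log10 q value as an alternative to it. Depth per sample is unknown, so no counting interval is given, and n is the number of replicates. Summits were read as start plus offset, counting from 1, on dm6. Gene models were those of Ensembl release 115 on the 6 chromosome arms, with 18164 genes and 23584 distinct TSSs, and sequence was the RefSeq copy of the same assembly.

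A summit was placed in the first class that applied: TSS within 500 bp, exon, intron, between genes. A summit was recovered when 1 of the 7896 strongest summits of a replicate lay within 100 bp, and replicate signals are those of the nearest summit within 100 bp in the complete list. Run classes follow the place of most of the summits (over 50%). Differences were tested over the 3 replicates by two-sided exact sign-flip permutation, with a smallest p of 0.25. No test was run over summits or genes, which are not replicates.

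The runs, the 21 gene lists and the words were chosen with earlier results of these data known. Of 416 list entries, 13 were matched by an older symbol and 4 had no match. After values had been seen, 3 further entries (S, mTor and caly) were given their current symbols, 2 repeats were dropped, and nau and crol were taken out of lists they had entered by mistake, and no run overlapped either. The text names the 12 runs with the most summits, the extremes of span, median signal and number of TSSs, the runs over 10000 bp, and up to 4 overlapped genes of each list except the ribosomal one. All 7 overlapped genes of the EGFR list are named, more than that rule gives, after their values were seen. The runs at wg, E(spl)malpha-BFM, ush, px and tara, and those over 10000 bp beyond the leading 12, were named only once their values were known. Alternatives changed the gap, the number of summits and intervals, the TSS window, the matching distance, the list, the build and the replicates. Scripts ran in Python 3.11.15 with numpy 2.4.6, pandas 2.3.3 and matplotlib 3.10.9 and were checked on simulated summits. One result that rests on a withheld item is not reported here.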

Additional observations from a re-analysis of the deposited data

How the results depend on the processing

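The number of runs depends on the rule. With a largest gap of 2000 bp there were 145 runs with 683 summits and a median span of 3283 bp, and with 5000 bp there were 450 with 2411 and 7362 bp. Runs of 3 or more summits numbered 606 with 2312 summits and 3130.5 bp, and runs of 5 or more 116 with 690 and 5913.5 bp. The stronger part of the IDR list, split at its median rank, gave 59 runs with 270 summits and 4310 bp, and keeping 1 summit per 504 bp, chosen after the data had been seen, gave 145 with 667 and 5587 bp. Summits recovered in both remaining replicates when 1 replicate was left out gave 104 to 135 runs with 466 to 619 summits and 4644 to 4960 bp, fewer because fewer summits enter. The median span also moved to 4774 bp with 4 intervals, 4772 bp with the strongest summit of each interval, 4708 bp on dm3 (234 runs) and 4488 bp in replicate 3 alone. The promoter share difference kept its sign under all 15 alternatives, between -16.5 and -7.55 percentage points. The signal ratio stayed above 1 in 13 of 14 and was 1 with −log10 q, which has the same highest value for 85.1% of summits in runs and 79.0% of others, so that both medians are that value. The difference in recovery changed sign in 5 of 12 alternatives, to -0.381 points with a gap of 2000 bp, -0.105 with 3 or more summits, -1.83 in the stronger part of the list, and -0.0843 at a matching distance of 50 bp. Leaving out 1 replicate gave -0.0936 to 1.73, the lowest without replicate 3. The cause of these changes was not tested. No paired analysis was possible because the samples form 1 group with no other to pair with, while the tests over replicates already compare both sets of summits within each replicate. With 3 replicates an exact p cannot fall below 0.25, and without read depth weak summits cannot be given an error.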
